A study of Mus musculus with 8 samples.

Results

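The 8 genes described here encode secreted vascular growth factors (Vegfa, Vegfb, Vegfc and Pgf), vasoactive peptides (Adm, Edn1 and Apln) and Hif1a, the oxygen-regulated transcription factor that drives several of them. They were chosen by function with the log2 levels of these same arrays already in view, so their levels and differences are given as a description and no test is made of the list. Every probe set whose single annotated symbol is one of the 8 was kept, which gave 15 of the 45101 probe sets of the array and 8 of its 18194 singly named genes. Hif1a has 4 of them, Vegfc 3, Adm and Vegfa 2 each, and Vegfb, Pgf, Edn1 and Apln 1 each.

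Total RNA came from 7438 cells, a mouse mammary line in which GFP-tagged glucocorticoid receptor (GR) and Cherry-tagged estrogen receptor (ER) are both made from a tetracycline-controlled promoter. The 4 groups, of 2 arrays each, were cells given 100 nM dexamethasone (Dex, a synthetic glucocorticoid), cells given 100 nM estradiol (E2), cells given 100 nM of each (Dex + E2), and untreated cells. Hormones were present for 2 hours. All 4 groups had been in charcoal-dextran serum for 48 hours and without tetracycline for 24 hours, so the untreated cells too had been released from tetracycline, and the measurements describe 1 engineered line with introduced receptors. No label used here says that replicates 1 and 2 came from separate cultures, so the errors cover only the spread between these arrays, which may be technical.

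Vascular endothelial growth factors are dimeric ligands of tyrosine kinase receptors on endothelial cells. Vegfa, the main angiogenic member, binds Flt1 and Kdr, with the neuropilins as co-receptors, Vegfb and placental growth factor (Pgf) bind Flt1, and Vegfc acts chiefly on lymphatic endothelium through Flt4. Adrenomedullin (Adm) is a vasodilator read by Calcrl paired with Ramp2 or Ramp3, endothelin-1 (Edn1) a vasoconstrictor read by Ednra and Ednrb, and apelin (Apln) the ligand of Aplnr. Hif1a protein is controlled mainly by oxygen-dependent degradation, so its transcript level says little about its activity.

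The promoter windows of the 4 members whose levels differed most between groups are shown first, as the annotated starts of the genes the results turn on; the arrays do not show which start was used. They come from RefSeq (build GRCm38.p6), run 5′ to 3′ on the gene's strand, and cover 250 bases before and 50 after the annotated start. Of the 2 annotated starts of Vegfa and of Pgf, the upstream one is printed. Capitals mark a hypoxia response core (GCGTG or ACGTG) or a GC box (GGGCGG), read on either strand, so that some capitals show the complement.
Adm, chr7:110627407-110627706 (plus strand): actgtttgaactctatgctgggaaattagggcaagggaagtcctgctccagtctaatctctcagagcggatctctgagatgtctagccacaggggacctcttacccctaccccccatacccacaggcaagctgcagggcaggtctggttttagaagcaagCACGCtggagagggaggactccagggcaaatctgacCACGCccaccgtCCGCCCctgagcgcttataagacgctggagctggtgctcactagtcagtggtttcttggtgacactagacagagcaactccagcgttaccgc
Vegfa, chr17:46032328-46032627 (minus strand): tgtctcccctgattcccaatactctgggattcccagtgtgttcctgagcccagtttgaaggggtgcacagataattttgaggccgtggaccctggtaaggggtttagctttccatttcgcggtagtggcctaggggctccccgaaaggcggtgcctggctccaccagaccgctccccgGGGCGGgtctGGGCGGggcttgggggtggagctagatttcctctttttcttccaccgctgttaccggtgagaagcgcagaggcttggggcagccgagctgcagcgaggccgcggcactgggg
Pgf, chr12:85177264-85177563 (minus strand): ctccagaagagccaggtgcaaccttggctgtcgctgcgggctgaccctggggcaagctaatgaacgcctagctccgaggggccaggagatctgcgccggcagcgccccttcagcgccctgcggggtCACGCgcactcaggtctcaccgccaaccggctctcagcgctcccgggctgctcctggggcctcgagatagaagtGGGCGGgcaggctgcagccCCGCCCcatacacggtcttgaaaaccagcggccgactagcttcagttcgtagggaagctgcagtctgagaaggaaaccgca
Apln, chrX:48034804-48035103 (minus strand): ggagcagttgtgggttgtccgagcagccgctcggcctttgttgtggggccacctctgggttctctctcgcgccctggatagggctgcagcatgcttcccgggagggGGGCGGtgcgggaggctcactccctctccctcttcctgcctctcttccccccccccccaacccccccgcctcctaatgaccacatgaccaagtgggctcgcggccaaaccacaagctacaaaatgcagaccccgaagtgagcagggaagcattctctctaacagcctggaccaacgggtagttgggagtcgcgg

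All 8 members matched the promoter table, with 10 windows in all. The Adm window holds 2 GCGTG cores on the opposite strand, which begin at -90 and -54 relative to the start, and the Pgf window holds 1, which begins at -124. In the printed windows of Vegfa and Apln neither core was found, while all 4 printed windows hold at least 1 GC box. The second Vegfa window, not printed, holds GCGTG at -218 and ACGTG at -211, and the second Pgf window holds neither core and no GC box. Over the 10 windows GCGTG was in 4, ACGTG in 3 and GGGCGG in 7. The letters GCGTG are in 32.4% of the 32851 windows of the table, ACGTG in 19.6% and GGGCGG in 35.7%, counted on both strands. The glucocorticoid receptor half-site AGAACA, which is in 19.0% of all windows, was in 0 of the 10 windows of the members. The estrogen receptor half-site AGGTCA, in 16.3% of all windows, was in 2 of the 10, those of Vegfb and Hif1a. These counts describe the letters of short windows only and say nothing about receptor binding there or elsewhere.

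Signals are log2 values from robust multi-array averaging (RMA), so a difference of 1 is a 2-fold change, and differences are taken between arrays for the same probe set. Since probes differ in brightness, a level beside those of other genes shows only roughly whether a probe set is dim. Replicate arrays correlated at 0.998 in Dex, 0.998 in E2, 0.996 in Dex + E2 and 0.998 in untreated cells. The standard deviation of the difference between replicates over all probe sets was 0.212 in Dex + E2, against 0.140 to 0.166 in the other groups, so the Dex + E2 pair is the loosest. For 2 arrays, Dex + E2 replicate 1 and E2 replicate 2, the description field speaks of a chromatin experiment although title and treatment give the group used here. Calls of the members that changed without either array are given below. Most other differences are given only with both arrays kept. In limma, probe sets were called at a Benjamini-Hochberg adjusted p under 0.05 over all 45101. In a population of cultured cells, fewer cells making a transcript and less transcript per cell cannot be told apart.

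Of 10 endothelial markers, all measured, 8 had a mean log2 level under 6, among them Pecam1, Cdh5, Tek, Tie1, Emcn and Vwf, and Kdr lay at 6.40. Their summed linear signal ran from 348 to 353 in Dex, 322 to 360 in E2, 354 to 403 in Dex + E2 and 342 to 367 in untreated cells. Of 10 mammary epithelial markers, 7 lay under 6, with Cdh1 at 3.25 and Krt18 under the median probe set of the array, while Krt14 reached 8.06 and Epcam 6.84. These levels of Krt14 and Epcam came from probe sets whose suffix marks probes that may also match other transcripts. The other Krt14 probe sets lay at 6.32 and 4.34, and the other Epcam probe set at 5.025. Of 8 mesenchymal and perivascular markers, 3 lay at 8 or above, Vim and Col1a2 at 13.95 and Pdgfrb at 10.83, and 2 under 6, Col1a1 and Rgs5, with Pdgfra, Cspg4 and Acta2 between. The sample label says mammary cells and does not name a lineage.

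Adm had the widest differences of the 8 genes from untreated cells with Dex and with both hormones, though not with E2 alone. Its transcript was 4.96-fold and 4.58-fold higher in Dex than in untreated cells on probe sets 1416077_at and 1447839_x_at. In Dex + E2 it was 3.57-fold and 2.98-fold higher on the same probe sets, and with E2 alone it lay close to untreated. Probe set 1416077_at read 9.63 and 9.45 in Dex, 7.46 and 7.29 in E2 and 9.38 and 8.75 in Dex + E2, against 7.30 and 7.16 in untreated cells. All 4 arrays with Dex lay above all 4 without it. Probe set 1447839_x_at, whose suffix marks probes that may also match other transcripts, read 10.25 and 9.99 in Dex, 8.03 and 7.86 in E2 and 9.87 and 9.14 in Dex + E2, against 7.96 and 7.90 in untreated cells. Its order of groups was that of the first probe set, with untreated and E2 arrays interleaved.

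The difference of Adm between Dex and untreated cells was 2.31 ± 0.17 log2 units (standard error from limma, n = 2 per group), which is 4.96-fold, on 1416077_at, and 2.19 ± 0.19, or 4.58-fold, on 1447839_x_at. With both hormones it was 1.84 ± 0.17 (3.57-fold) and 1.57 ± 0.19 (2.98-fold). With E2 alone it was 0.15 ± 0.17 and 0.02 ± 0.19, each less than its standard error. Both probe sets kept the call for Dex under every alternative run, with differences from 2.22 to 2.40 and from 2.07 to 2.32 when 1 array was left out. The call with both hormones was lost for 1447839_x_at without Untreated replicate 2 (1.54), and for 1416077_at under none of the arrays left out. Without Dex + E2 replicate 1 the differences with both hormones were 1.52 and 1.21, and without Dex + E2 replicate 2 they were 2.15 and 1.94.

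Both Dex + E2 arrays lay below both Dex arrays on each Adm probe set, but the size of this difference, and whether it was called, depended on 1 array. Relative to Dex alone, the Dex + E2 mean differed by -0.47 ± 0.17 on 1416077_at and by -0.62 ± 0.19 on 1447839_x_at, and neither was called. Dex + E2 replicate 2 was the low one on both probe sets. Without Dex + E2 replicate 1 the differences were -0.79 and -0.98 and both were called, and without Dex + E2 replicate 2 they were -0.16 and -0.26 and neither was. The Dex effect in the presence of E2 minus that in its absence was -0.62 ± 0.24 and -0.64 ± 0.27, not called, and with 1 array left out it ran from -0.94 to -0.30 on 1416077_at. Adding Dex to E2, in contrast, gave 1.69 ± 0.17 and 1.55 ± 0.19 above E2 alone, and both were called, though 1447839_x_at was not without E2 replicate 1 (1.64) or E2 replicate 2 (1.47).

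**Figure D1:**
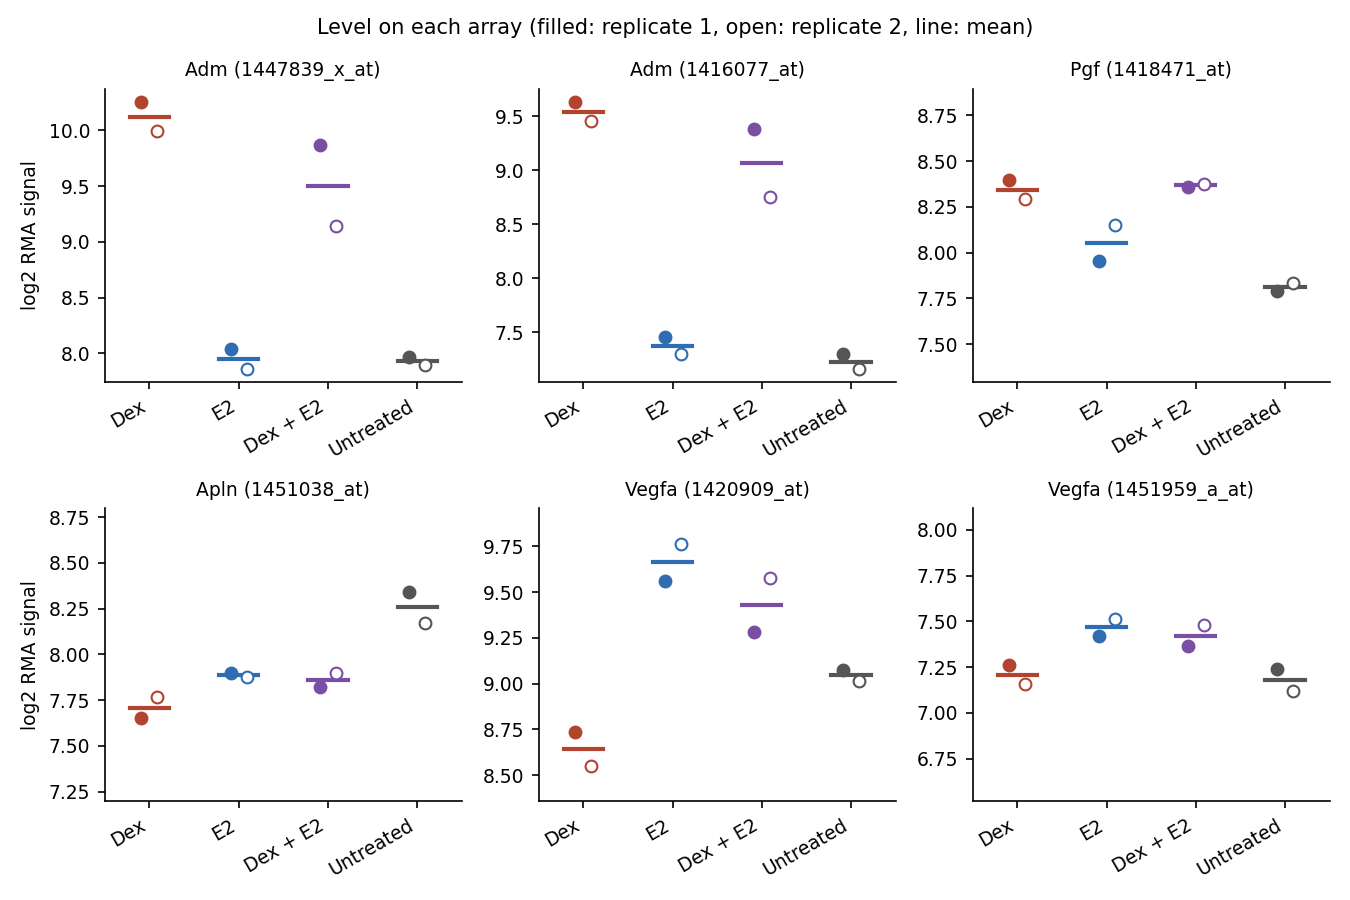
Log2 RMA signal (vertical axis, with a range of its own in each panel) of 6 probe sets of Adm, Pgf, Apln and Vegfa on each of the 8 arrays, by group; filled and open points are replicates 1 and 2 and the line is their mean. Both Adm probe sets are high on all 4 arrays with Dex, Pgf is lowest and Apln highest in untreated cells, and on both Vegfa probe sets the E2 and Dex + E2 arrays lie above those of Dex and untreated cells.

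Edn1, whose peptide opposes adrenomedullin on vessel tone, differed far less. Its probe set 1451924_a_at read 6.79 and 6.53 in Dex, 6.28 and 6.39 in E2 and 6.66 and 6.57 in Dex + E2, against 6.44 and 6.49 in untreated cells. The 4 arrays with Dex lay above the other 4, by little. The difference from untreated was 0.20 ± 0.10 with Dex, -0.13 ± 0.10 with E2 and 0.15 ± 0.10 with both, and none was called. The Dex value was 0.06 without Dex replicate 1 and 0.33 without Dex replicate 2.

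Apln was lower in every treated group, most with Dex. Probe set 1451038_at read 7.65 and 7.77 in Dex, 7.90 and 7.88 in E2 and 7.82 and 7.90 in Dex + E2, against 8.34 and 8.17 in untreated cells, whose 2 arrays were the highest of the 8. With Dex it fell by 0.55 ± 0.09 log2 units, 1.46-fold, and was called. The differences of -0.37 ± 0.09 with E2 and -0.40 ± 0.09 with both hormones were not. The Dex call was lost without Untreated replicate 1 (-0.46), Untreated replicate 2 (-0.63), Dex replicate 1 (-0.49) or Dex replicate 2 (-0.60), while the sign stayed. Adding Dex to E2 left Apln at -0.03 ± 0.09 relative to E2 alone. The corresponding interaction was 0.52 ± 0.13 and was not called.

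Pgf was higher in all 3 treated groups. Probe set 1418471_at read 8.39 and 8.29 in Dex, 7.96 and 8.15 in E2 and 8.36 and 8.38 in Dex + E2, against 7.79 and 7.84 in untreated cells. Dex and Dex + E2 arrays overlapped each other, lay above both E2 arrays, and these lay above both untreated arrays. The rise was 0.53 ± 0.09 with Dex (1.44-fold) and 0.55 ± 0.09 with both hormones (1.47-fold), both called. With E2 alone the difference was 0.24 ± 0.09, not called. Adding E2 to Dex gave a Pgf difference of 0.02 ± 0.09 from Dex alone, with a 95% interval from -0.19 to 0.23, and this was not called. The Dex call was lost without Untreated replicate 1 (0.51), Untreated replicate 2 (0.55), Dex replicate 1 (0.48) or Dex replicate 2 (0.58). The Dex call was also lost with the replicate number as a block, and the call with both hormones with only the arrays of Dex + E2 and untreated cells in the fit. The call with both hormones was lost, too, without either untreated array (0.53 and 0.57), without Dex + E2 replicate 2 (0.55) and, since all groups share 1 estimate of the spread, without either Dex array, where the difference itself was the same 0.55. The untreated arrays are shared by these comparisons.

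On its brighter probe set, Vegfa lay below untreated cells with Dex and above them with E2. Probe set 1420909_at read 8.73 and 8.55 in Dex, 9.56 and 9.76 in E2 and 9.28 and 9.58 in Dex + E2, against 9.08 and 9.02 in untreated cells. The order of groups was Dex lowest, then untreated, then both groups with E2, which overlapped each other. The 4 arrays with E2 ran from 9.28 to 9.76 and the 4 without it from 8.55 to 9.08. Differences from untreated were -0.40 ± 0.12 with Dex, 0.62 ± 0.12 with E2 (1.53-fold) and 0.38 ± 0.12 with both hormones, and none of them was called over the 45101 probe sets. Adding E2 to Dex gave 0.79 ± 0.12 (1.73-fold), again not called. The interaction was 0.17 ± 0.17, not called, with a 95% interval from -0.21 to 0.55.

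The call between Dex + E2 and Dex turned on 1 array. Without Dex + E2 replicate 1, the difference of 1420909_at between Dex + E2 and Dex was 0.94 and was called, and without Dex + E2 replicate 2 it was 0.64 and was not. With E2 replicate 2 and Dex + E2 replicate 1 both left out, the difference between Dex + E2 and untreated was 0.53 and was called as well. The second probe set, 1451959_a_at, read 7.26 and 7.16 in Dex, 7.42 and 7.51 in E2 and 7.37 and 7.48 in Dex + E2, against 7.24 and 7.12 in untreated cells. It showed the E2 side of the pattern, at 0.29 ± 0.09 with E2 and 0.24 ± 0.09 with both hormones, but lay at 0.03 ± 0.09 with Dex, so the probe sets disagree about Dex. None of its differences was called.

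Vegfb and Vegfc gave small differences with no shared direction. Vegfb, on 1451803_a_at, read 8.37 and 8.25 in Dex, 8.30 and 8.12 in E2 and 8.19 and 8.21 in Dex + E2, against 8.23 and 8.32 in untreated cells, and its differences from untreated ran from -0.07 to 0.04. Of the 3 probe sets of Vegfc, those with mean levels of 4.86 and 5.04 lay under the array medians of 5.58 to 5.67. The other, 1439766_x_at, lay little above them at 5.96, and its untreated arrays read 5.72 and 6.13. Its suffix marks probes that may also match other transcripts. The differences of all 3 from untreated lay between -0.18 and 0.15, and little can be read from them.

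Hif1a transcript differed little with any treatment on its brighter probe sets. Probe set 1427418_a_at read 11.73 and 11.76 in Dex, 11.72 and 11.82 in E2 and 11.74 and 11.73 in Dex + E2, against 11.72 and 11.63 in untreated cells, and its differences from untreated were 0.07, 0.09 and 0.06, each ± 0.09. On 1416035_at, the next in level, they were 0.05, 0.20 and 0.11, each ± 0.10. The dimmer 1448183_a_at went the other way with both hormones, at -0.41 ± 0.14, where Dex + E2 read 6.69 and 6.41 against 7.13 and 6.79 in untreated cells. The dimmest, 1431981_at, had a mean of 4.22, under the array medians. No Hif1a probe set was called in any comparison.

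**Figure D2:**
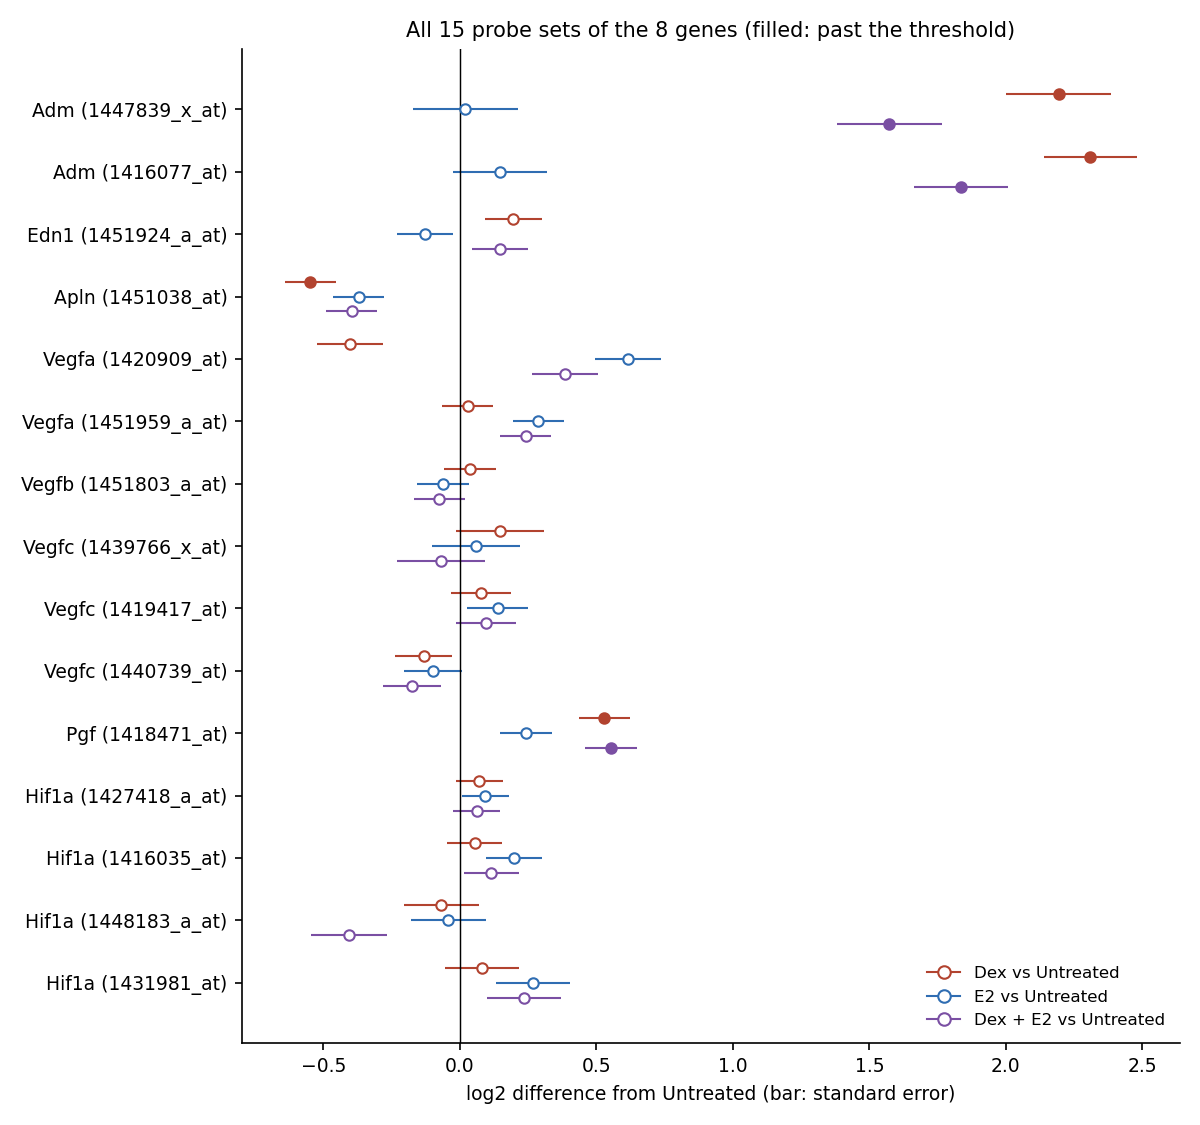
Log2 difference from untreated cells (horizontal axis, bar: standard error) of all 15 probe sets with Dex, E2 and Dex + E2; filled points passed the limma threshold over all 45101 probe sets. Both Adm probe sets lie far to the right with Dex and Dex + E2, Pgf is the other gene with filled points on the right, and Apln with Dex is the 1 filled point on the left.

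Counted over the 15 probe sets, 4 were called with Dex, namely 2 of Adm and 1 of Pgf higher and 1 of Apln lower. Over the whole array, 0.92% of probe sets were called with Dex, 0.572% higher and 0.348% lower. The median difference with Dex was 0.07 over the 15 and 0.00 over all probe sets. With both hormones 3 were called, all higher (Adm and Pgf), where the whole array had 0.84% called, 0.47% higher and 0.37% lower, and the medians were 0.12 and 0.00. With E2 alone limma called 0 of the 15, beside 0.0355% of the whole array, 0.0333% higher and 0.00222% lower. Its unadjusted p was under 0.05 for 4 of the 15 and for 2441 of the 45101. The medians with E2 were 0.09 and -0.01. Between Dex + E2 and E2 alone 2 of the 15, both Adm, were called, beside 0.335% of the array. Between Dex + E2 and Dex alone limma called 0, beside 0.00665% of the array. Its unadjusted p was under 0.05 for 5 of the 15 and for 2100 of the 45101. For the interaction limma called 0, beside 0.00222%. There the unadjusted p was under 0.05 for 3 of the 15 and for 2464 of the 45101. The whole-array shares of calls themselves depend on single arrays. With 1 array left out, the 415 calls with Dex ranged from 170 to 496, the 16 with E2 from 3 to 37, and the 379 with both hormones from 169 to 1412. The 151 between Dex + E2 and E2 ranged from 30 to 1970, the 3 between Dex + E2 and Dex from 0 to 168, and the 1 for the interaction from 0 to 29. The values of 1412, 1970, 168 and 29 all came without Dex + E2 replicate 1, 30 came without E2 replicate 1, 170 without Dex replicate 1 and 169 without Untreated replicate 1. Since the genes were chosen with these contrasts known, nothing further is read from the counts.

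Some transcripts followed the called members closely over the 8 arrays. Among 445 genes whose group means spanned at least 0.5 log2 units, the highest Pearson r with Adm (1447839_x_at) was 0.994 for Ampd3, an AMP deaminase, then 0.993 for Fnip2, a folliculin partner, and 0.993 for Ppm1d, a stress-induced phosphatase. For Pgf, Zfp36, an mRNA decay factor (0.985), and Lrrc8a, a subunit of the volume-regulated anion channel (0.982), were among the closest. For Apln they were Ankrd50 (0.918), the phosphodiesterase gene Pde4b (0.896) and the sulfotransferase gene Chst1 (0.893). The 8 arrays fall into 4 groups and share their normalization, so these coefficients are descriptive only.

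Calls are counted next over lists of pathway genes. These lists were chosen with earlier results of these data known, so the counts are a description. Beside them, the whole array had 0.92% of probe sets called with Dex, 0.0355% with E2 and 0.84% with both hormones. The unadjusted p of limma was under 0.05 for 2566, 2441 and 3677 of the 45101. The receptors named here were mostly dim. The brightest probe sets of Calcrl, Ramp2, Ednrb, Aplnr and Flt1 had mean log2 levels of 3.81, 4.85, 5.10, 5.79 and 5.97, and that of Kdr 6.40, and none of them was called in a comparison with untreated. Flt4 and Ramp3 lay higher, at 6.53 and 7.31, and were not called in these comparisons. Ednra is not analysed here. The brightest probe sets of the neuropilins Nrp1 and Nrp2 lay at 9.44 and 9.09. Of 15 probe sets of VEGF receptors and co-receptors 0 were called higher and 1 lower with Dex, a dim one of Nrp2 (1447343_at), at -0.48 ± 0.09 (limma, Benjamini-Hochberg adjusted p = 0.0424). It read 4.64 and 4.79 in Dex, against 5.24 and 5.15 in untreated cells. The 3 brighter Nrp2 probe sets lay at -0.51, -0.36 and -0.38 with Dex and were not called (limma, adjusted p = 0.0661, 0.383 and 0.344). With E2 and with both hormones 0 of the 15 were called by limma, with 0 and 3 at an unadjusted p under 0.05. The median differences of the group were -0.14, -0.07 and -0.05 with Dex, E2 and both.

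In the adrenomedullin, endothelin and apelin systems, 1 of 28 probe sets was called, higher with Dex and again with both hormones, and 0 lower. It was Ackr3 (1417625_s_at), an atypical receptor that scavenges the chemokine Cxcl12 and also binds adrenomedullin. It read 10.64 and 11.17 in Dex, 9.46 and 10.08 in E2 and 10.61 and 11.26 in Dex + E2, against 9.15 and 9.27 in untreated cells. All treated arrays lay above the untreated ones, and E2 lay between. It rose by 1.70 ± 0.25 with Dex (limma, adjusted p = 0.00729) and by 1.73 ± 0.25 with both hormones (limma, adjusted p = 0.00723), and with E2 alone was 0.56 ± 0.25 above untreated (limma, adjusted p = 0.905). With E2 alone limma called 0 of the 28, with 1 at an unadjusted p under 0.05.

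Among 30 probe sets of other angiogenic ligands, 2 were higher and 1 lower with Dex. The 2 belong to Vegfd, a lymphangiogenic relative of Vegfc. On 1438954_x_at it read 7.70 and 7.62 in Dex, 6.96 and 7.21 in E2 and 7.26 and 7.21 in Dex + E2, against 7.10 and 6.99 in untreated cells. It rose by 0.61 ± 0.10 with Dex on that probe set (limma, adjusted p = 0.0178) and by 0.56 ± 0.09 on 1438953_at (limma, adjusted p = 0.0121), while 1449528_at lay at 0.30 ± 0.10 (limma, adjusted p = 0.557). With both hormones the 3 lay at 0.19, 0.23 and 0.25 and were not called. The lower one was Ereg, an EGF-family ligand, at -0.95 ± 0.15 with Dex (limma, adjusted p = 0.0142) and -1.09 ± 0.15 with both hormones (limma, adjusted p = 0.00644). With both hormones 0 were higher and 2 lower, Ereg and Angptl4. Angptl4, a lipoprotein lipase inhibitor that is a known HIF target, lay at -0.99 ± 0.19 (limma, adjusted p = 0.0470). On 1417130_s_at it read 8.38 and 8.15 in Dex, where it was not called, and 8.95 and 8.47 in E2. Dex + E2 read 8.31 and 7.75, against 8.95 and 9.09 in untreated cells. The Angptl4 call was lost with only the arrays of Dex + E2 and untreated cells in the fit. It was lost, too, without either untreated array, without either Dex array and without Dex + E2 replicate 2. With E2 alone limma called 0 of the 30, with 3 at an unadjusted p under 0.05.

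The angiogenesis inhibitors held 2 of 18 probe sets lower and 0 higher with Dex and again with both hormones, all of Thbs1, which encodes thrombospondin-1. On 1460302_at it read 9.96 and 9.91 in Dex, 11.23 and 11.05 in E2 and 10.38 and 10.09 in Dex + E2, against 11.56 and 11.33 in untreated cells. The second probe set, 1450377_at, fell by 1.68 ± 0.14 with Dex (limma, adjusted p = 0.000209) and fell by 1.45 ± 0.14 with both hormones (limma, adjusted p = 0.00062). With E2 alone limma called 0 of the 18, with 6 at an unadjusted p under 0.05. Of 16 probe sets of other vasoactive genes, only 2 of Ptgs2, the inducible cyclooxygenase, were called. Ptgs2 on 1417263_at read 5.87 and 5.82 in Dex, 5.50 and 5.28 in E2 and 5.41 and 5.33 in Dex + E2, against 6.29 and 6.29 in untreated cells. It fell by 0.90 ± 0.10 with E2 (limma, adjusted p = 0.0109) and fell by 0.92 ± 0.10 with both hormones (limma, adjusted p = 0.000959), and lay at -0.45 ± 0.10 with Dex (limma, adjusted p = 0.0822). Its brighter probe set, 1417262_at, fell by 0.75 ± 0.14 with both hormones (limma, adjusted p = 0.0393) and lay at -0.64 ± 0.14 with E2 (limma, adjusted p = 0.389). With Dex limma called 0 of the 16, with 4 at an unadjusted p under 0.05.

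Around Hif1a, 28 probe sets of HIF pathway regulators held 0 calls by limma with Dex or with E2, with 2 at an unadjusted p under 0.05 in each, and 2 lower ones with both hormones. Both belong to Cited2, which competes with HIF for its coactivators. On 1452207_at Cited2 read 11.54 and 11.55 in Dex, 11.59 and 11.10 in E2 and 11.35 and 10.85 in Dex + E2, against 11.99 and 12.07 in untreated cells. It fell by 0.93 ± 0.17 with both hormones (limma, adjusted p = 0.0403). On both probe sets all treated arrays lay below both untreated ones, and neither was called between Dex + E2 and either hormone alone. The difference of 1421267_a_at was -0.85 ± 0.16 with both hormones and -0.81 with E2 alone, where it was not called. The Cited2 calls were lost without either untreated array, without either Dex array and without Dex + E2 replicate 2. The partner subunit Arnt, the oxygen sensor Egln3 and the ubiquitin ligase subunit Vhl had brightest probe sets at mean levels of 9.21, 8.10 and 8.93 and were not called, and Epas1, the other main HIF alpha subunit, was dim at 5.31.

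Of 48 probe sets of HIF target genes, 3 were higher and 0 lower with Dex. Pfkfb3, which makes the main allosteric activator of glycolysis, rose by 1.35 ± 0.14 on 1416432_at (limma, adjusted p = 0.000685). That probe set read 6.45 and 6.62 in Dex, 5.49 and 5.85 in E2 and 6.29 and 5.99 in Dex + E2, against 5.15 and 5.22 in untreated cells. A second Pfkfb3 probe set, 1456676_a_at, lay at 0.14 ± 0.10 and was slightly the brighter, with a mean level of 5.965 against 5.881. In untreated cells the called probe set lay under the array medians. With only the brightest probe set of each gene in the fit, Pfkfb3 was called neither with Dex nor with both hormones. The related Pfkfb4 rose by 0.63 ± 0.10 (limma, adjusted p = 0.0167) and Ddit4, an inhibitor of mTOR complex signalling that also responds to glucocorticoids, by 1.12 ± 0.20 (limma, adjusted p = 0.0252). With both hormones Pfkfb3 was the 1 called, at 0.95 ± 0.14 (limma, adjusted p = 0.00775). With E2 alone limma called 0 of the 48, with 7 at an unadjusted p under 0.05. The median difference over the 48 was -0.01, -0.02 and 0.00 with Dex, E2 and both.

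Over all 183 probe sets of these 81 genes, 6 were higher and 4 lower with Dex, and 0 higher and 1 lower with E2. With both hormones 2 were higher and 8 lower. The shares called over the whole array were 0.92%, 0.0355% and 0.84% for the same comparisons. The Dex count of 10 was 3 without either untreated array and 4 without either Dex array. Thbs1 and Pfkfb3 were called under each of these 4 removals, Ackr3 only without Dex replicate 1, Ereg only without Dex replicate 2, and Ddit4, Nrp2, Pfkfb4 and Vegfd under none of them. The 10 calls with both hormones were 3 without either untreated array, 6 without either Dex array, 19 without Dex + E2 replicate 1 and 7 without Dex + E2 replicate 2, and Thbs1 and Ptgs2 were among them each time. The E2 call of Ptgs2 was lost without either untreated array or E2 replicate 2. Between Dex + E2 and E2, 3 were lower, of Thbs1 and Thbs2, beside 0.335% of the whole array called. Without Dex + E2 replicate 1 this comparison gave 17 calls, over 15 genes that include Ackr3 and Ereg, and without any other array of the 3 treated groups 0 or 1 (Thbs1, or Ddit4 without Dex + E2 replicate 2). Between Dex + E2 and Dex, and for the interaction, limma called 0, with 25 and 14 at an unadjusted p under 0.05. Over the whole array limma gave 2100 and 2464 of the 45101 an unadjusted p under 0.05.

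**Figure D3:**
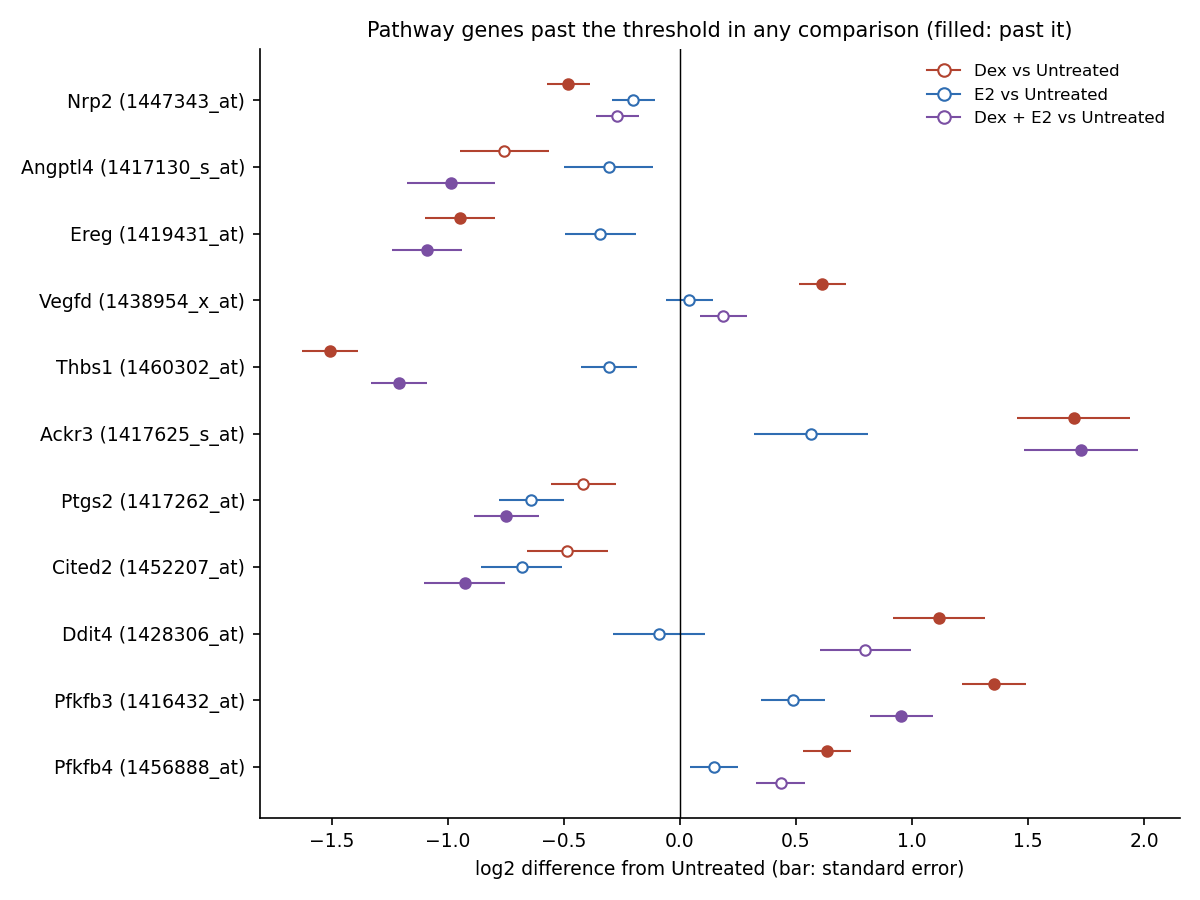
Log2 difference from untreated cells (horizontal axis, bar: standard error) with Dex, E2 and Dex + E2 of the 11 receptor, ligand, inhibitor and HIF pathway genes with a probe set past the limma threshold in at least 1 of these comparisons, each shown by its brightest such probe set; filled points passed. Of the points filled with Dex, Ackr3, Pfkfb3, Ddit4, Pfkfb4 and Vegfd lie to the right of 0, and Thbs1, Ereg and Nrp2 to the left. Angptl4, Cited2 and Ptgs2, not filled with Dex, lie to the left as well.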

How the data were processed

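The table the authors deposited holds log2 signals of 45101 probe sets on 8 Affymetrix mouse arrays, made with RMA, and Affymetrix Expression Console is the software named, per the submitters' processing notes, with versions and library files not given in the sources used here. RMA subtracts background, equalises the arrays' distributions and combines probes, which compresses changes of dim probe sets. Groups came from sample titles. Names came from the platform annotation, in which 34958 probe sets have 1 symbol, 932 several and 9211 none listed here. All 8 members matched RefSeq symbols by Entrez number.

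All probe sets were fitted as 4 group means over 8 arrays with limma 3.58.1 (R 4.3.3), with 4 residual and 6.27 prior degrees of freedom. There were 6 contrasts, and p-values were adjusted by Benjamini-Hochberg over 45101 probe sets. The median standard error of a 2-group difference was 0.102, and the number of arrays limits precision. The fit was checked on simulated arrays. Of 84 pathway genes listed, 81 have a singly named probe set; Ednra, Ptgs1 and Vash1 are not analysed here. Members, lists and markers were chosen with earlier results of these data known. The pathway genes named are the called ones, at most 3 per list and comparison, plus 12 receptor and HIF genes always considered; likeness was ranked over genes spanning at least 0.5 log2 units, and 1 gene it named is not reported here. Alternatives are in the closing section.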

Additional observations from a re-analysis of the deposited data

How the results depend on the processing

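No direction of a called member difference turned under any of the alternatives: 1 probe set per gene, a trended and robust prior, a common array median, a log2 minimum of 6 on 2 arrays, the replicate block, 1 array left out, both arrays with a conflicting description left out, and only the groups compared. With 1 array left out, the member counts ranged from 2 to 4 for Dex, 1 to 3 for Dex + E2, 0 to 3 for Dex + E2 against Dex and 1 to 2 for Dex + E2 against E2, and the pathway counts from 3 to 12, 3 to 19, 0 to 0 and 0 to 17 for the same comparisons and 0 to 1 for E2. With 1 probe set per gene, which tests fewer probe sets, the pathway counts were 6 with Dex, 0 with E2, 6 with Dex + E2 and 1 between Dex + E2 and E2, where 1 member gene, Adm, was called. Without both arrays of conflicting description the pathway counts were 16, 0, 20, 2 against Dex and 8 against E2, and 3 member probe sets, of Adm and Vegfa, were called for Dex + E2 against Dex. With only the groups compared the pathway counts were 16 with Dex, 0 with E2 and 0 between Dex + E2 and E2, where 0 member probe sets were called, and Pgf lost its call with Dex + E2. The causes were not tested. With the replicate block 3 member probe sets were called for Dex, Pgf being lost, and no other member call changed. Same-numbered arrays deviated together at correlations of 0.160 to 0.313 among Dex, E2 and untreated cells and of -0.249 to -0.105 between these and Dex + E2, so the numbers are not shown to pair the arrays of all groups.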
